A study of Homo sapiens with 6 samples.

Results

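The TM4SF genes encode the L6 family of small membrane proteins, and 6 of them were examined here: TM4SF1, TM4SF4, TM4SF5, TM4SF18, TM4SF19 and TM4SF20. They were found by matching these symbols to the Ensembl identifiers of the count tables, which gave 6 of 63677 rows. TM4SF5 was chosen by its counts and fold change between the groups compared here, and the other members follow from it by family. The contrast is therefore a description of the family and carries no test of it. RNA had been sequenced from SW480 cells, an established colorectal adenocarcinoma line. The cells were transduced with a lentiviral vector for HA-tagged GFP (control) or HA-tagged POU5F1B, a retrogene copy of the pluripotency gene POU5F1. In both groups the transgene stood under a doxycycline-inducible promoter, transduced cells were selected with puromycin as a pool, and 1 µg/mL doxycycline was given for 72 h before harvest. Each group had 3 libraries, GFP replicates 1 to 3 and POU5F1B replicates 1 to 3. Nothing in the labels says whether they came from separate cultures, so the p-values below measure the spread between these libraries, which may be technical.

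L6 proteins span the plasma membrane several times and resemble the tetraspanins in shape, although the families differ in sequence. Like tetraspanins, they gather integrins, growth factor receptors and other adhesion proteins into membrane microdomains. TM4SF1, the founding member known as the L6 antigen, is abundant in many carcinomas and in endothelium. TM4SF5 is best known from liver and gastrointestinal tumour cells, where it acts with integrins, focal adhesion kinase and Src in adhesion and migration, and TM4SF4 and TM4SF20 are chiefly genes of liver and gut.

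On chromosome 17 of GRCh37, TM4SF5 occupies bases 4675179 to 4686508 of the plus strand, apart from the other members. TM4SF18 (149036285 to 149052201, minus strand), TM4SF1 (149086809 to 149095479, minus strand) and TM4SF4 (149192484 to 149221181, plus strand) form a cluster on chromosome 3, and TM4SF19 lies farther along the same chromosome at 196046213 to 196065374. TM4SF20 lies on chromosome 2 at 228226754 to 228246711. To show the start regions of the member that differed between the groups and of the most abundant member, the RefSeq sequences upstream of both starts are given below. They were matched to GRCh37 and leave out bases in exons of the gene itself.
TM4SF5 (chr17:4674931-4675178, plus strand): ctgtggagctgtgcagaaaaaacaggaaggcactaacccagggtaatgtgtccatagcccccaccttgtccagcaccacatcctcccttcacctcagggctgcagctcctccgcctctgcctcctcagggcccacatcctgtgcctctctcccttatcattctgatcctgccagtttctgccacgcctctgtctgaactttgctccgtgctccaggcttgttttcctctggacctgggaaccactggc
TM4SF1 (chr3:149095480-149095686, minus strand): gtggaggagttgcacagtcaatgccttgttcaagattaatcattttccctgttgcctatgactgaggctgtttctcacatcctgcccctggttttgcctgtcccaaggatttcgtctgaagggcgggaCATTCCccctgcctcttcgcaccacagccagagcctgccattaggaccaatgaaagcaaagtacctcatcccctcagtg
Capitals mark matches to the motifs searched on both strands over the 250 bases before the RefSeq start, which were the POU octamer ATGCAAAT, the AP-1 motif TGANTCA and the TEAD motif GGAATG. Of the 2 TEAD matches of TM4SF1, 122 and 13 bases before that start, the second lies in the exon bases left out and is not shown. The octamer occurred in 0 of 6 members and in 1.63% of 35116 RefSeq starts, AP-1 in 1 member (TM4SF19) and 6.57%, and the TEAD motif in 2 members (TM4SF1 and TM4SF18) and 11.9%. The window of TM4SF5 held none of these letters, which says nothing of the factors.

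The libraries held 10767947 to 12787637 counts, and a floor of 3 counts corresponded to 0.229 to 0.278 CPM (counts relative to the TMM-scaled library size). For POU5F1B itself, 6, 5 and 1 counts were found with GFP, and 15027, 11393 and 1458 with POU5F1B. Its mean level in POU5F1B replicates 1 and 2 was 9.22 times that in replicate 3. No pair of libraries agreed within sampling noise (chi-square of at least 4.21 per degree of freedom), and GFP replicate 3 stood apart from the other 5, with the lowest quality weight (0.111, against 0.575 to 2.79). Mitochondrial counts made up 8.62% of it and 6.95 to 7.49% of the others. POU5F1B replicate 3 also stood apart within its group. Its chi-square per degree of freedom was 17.5 and 20.9 with POU5F1B replicates 1 and 2, against 5.38 between those. The epithelial markers KRT8, KRT18, KRT19, EPCAM and CDH1 were present in every library, as were the gut markers CDX2 (14.6 to 37.1 CPM) and VIL1 (14.02 to 211 CPM), whereas CDX1 and CEACAM5 had at most 3 counts in each. KRT20 was low in every library (0.786 to 1.45 CPM), and LGALS4 and GPA33 had 0 to 9 counts. Summed over the list, the 12 epithelial markers reached 6368 to 9581 CPM in GFP and 7909 to 8932 CPM in POU5F1B libraries. KRT8 and KRT18 made up most of this sum, at means of 3578 and 3532 CPM over the 6 libraries. CDH1 did not overlap, at 33.7, 30.2 and 72.7 CPM in GFP and 164, 159 and 98.3 CPM in POU5F1B replicates 1 to 3. Every POU5F1B library lay above every GFP library in 10.2% of all tested genes, and below in 9.24%. EPCAM was at 86.8, 89.4 and 519 CPM in GFP and 320, 331 and 252 CPM in POU5F1B libraries. Groups overlapped in EPCAM, KRT8, KRT18, KRT19, KRT20, VIL1 and CDX2. Of the endothelial markers 4 of 5 measured, of the leukocyte markers 3 of 6 and of the hepatocyte markers 3 of 6 had at most 3 counts in every library, and summed levels were 1.31 to 6.15, 1.68 to 3.54 and 0.0762 to 4.18 CPM in GFP and 2.66 to 6.53, 2.04 to 4.995 and 0.157 to 3.75 CPM in POU5F1B libraries. The hepatocyte marker ALB and the fibroblast marker LUM had counts in the replicate 3 libraries alone. ALB had 0, 0 and 43 counts in GFP and 0, 0 and 37 in POU5F1B replicates 1, 2 and 3. LUM had 0, 0 and 34 in GFP and 0, 0 and 5 in POU5F1B libraries. The 8 fibroblast markers summed to 28.1 to 172 CPM in GFP and 13.4 to 23.1 CPM in POU5F1B libraries, with COL3A1 and DCN at 3 counts or fewer. Most of this sum came from COL1A1 (142, 118 and 16.9 CPM in GFP and 6.76, 5.56 and 9.49 CPM in POU5F1B replicates 1, 2 and 3) and PDGFRB (28.2, 28.7 and 7.22 CPM, and 8.73, 7.69 and 12.5 CPM). Groups did not overlap in COL1A1 either, which was lower with POU5F1B (log2 fold change -3.22 ± 1.09, SE). The same held for the leukocyte marker LYZ, which was higher (1.06 ± 0.42). The part of these markers in the results below was not tested.

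TM4SF5 (ENSG00000142484) was low in GFP cells and about an order of magnitude higher in POU5F1B cells. GFP replicates 1, 2 and 3 gave 6, 3 and 4 counts of it, and POU5F1B replicates 1, 2 and 3 gave 45, 39 and 51. Every POU5F1B library thus lay above every GFP library, including within the pair of replicate 3. As levels, TM4SF5 reached 0.505, 0.229 and 0.348 CPM in GFP libraries (0.361 ± 0.139, SD, n = 3) and 3.54, 3.62 and 4.25 CPM in POU5F1B libraries (3.80 ± 0.388, SD, n = 3). The fitted log2 fold change was 3.32 ± 0.36 (SE), a 10.0-fold difference with a 95% interval of 5.50 to 18.2. These values, with the fifth-highest log2 fold change among 14286 genes, are those that picked the gene. In bulk RNA of this kind, fewer cells with a transcript and less of it per cell cannot be told apart.

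**Figure D1:**
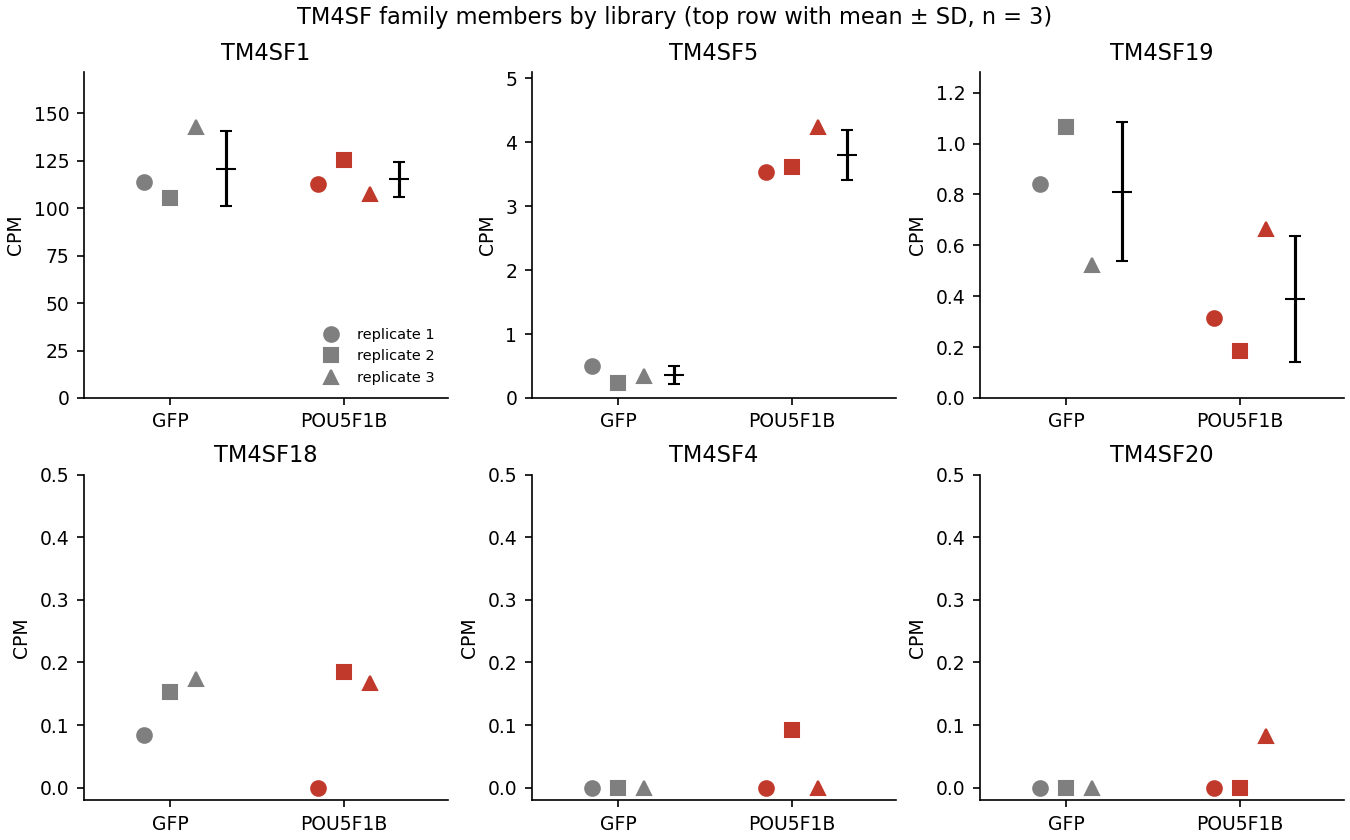
Level of each TM4SF family member in CPM (vertical axes, each panel with its own scale) in the 3 GFP and 3 POU5F1B libraries; symbols mark replicate numbers, and black bars in the top row are the mean ± SD (n = 3). TM4SF5 is the member whose groups lie far apart (0.361 against 3.80 CPM), TM4SF1 lies at 105 to 143 CPM with overlapping groups, and the bottom row holds members with at most 3 counts in each library.

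Counting error was wide on the GFP side, as these libraries lay at or just over the floor. Within the replicate numbers, the ratio of POU5F1B to GFP was 7.001 (95% interval 2.98 to 20.1) for replicate 1, 15.8 (5.03 to 80.0) for replicate 2 and 12.2 (4.48 to 46.5) for replicate 3, from exact Clopper-Pearson limits that cover counting error only. These 3 intervals overlap. TM4SF5 passed the filter on low counts through the POU5F1B group alone, as its GFP levels lay below the filter's limit of 0.825 CPM.

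Within the POU5F1B group, TM4SF5 was much closer between libraries than the transgene. POU5F1B was at 1182, 1056 and 121 CPM in replicates 1, 2 and 3, whereas TM4SF5 had 45, 39 and 51 counts. As shares of the family's counts, the Wilson intervals of these 3 libraries overlap, so no order is read among them. The mean of TM4SF5 in replicates 1 and 2 was 0.842 times its level in replicate 3, compared with 9.22 times for POU5F1B. With 3 libraries, no relation between the genes was tested.

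**Figure D2:**
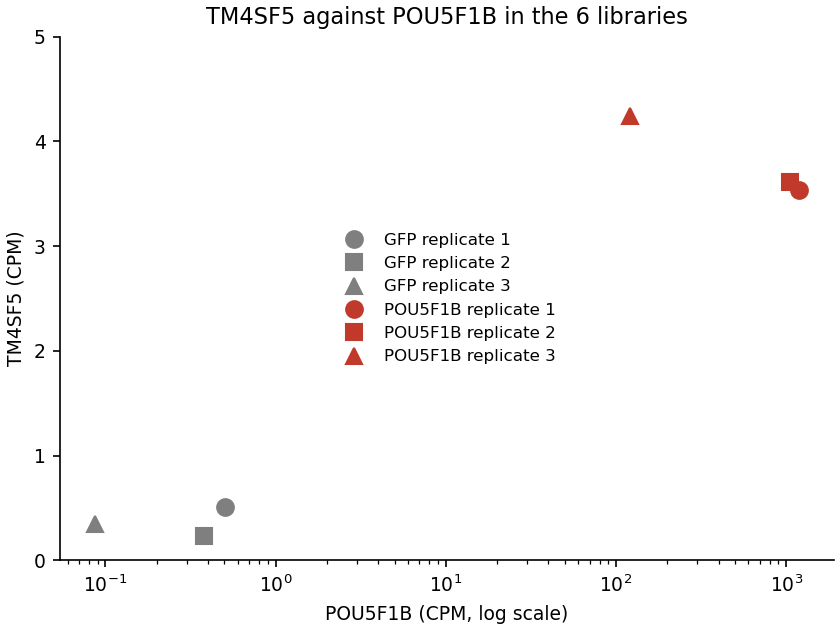
TM4SF5 (CPM, linear vertical axis) against POU5F1B (CPM, logarithmic horizontal axis) in each of the 6 libraries, with grey for GFP and red for POU5F1B. The 3 POU5F1B libraries sit between 3.54 and 4.25 CPM of TM4SF5 although POU5F1B itself is 9.22 times higher in the mean of replicates 1 and 2 than in replicate 3.

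TM4SF1 (ENSG00000169908) was the abundant member, and its groups did not differ beyond their spread. Its counts were 1354, 1381 and 1645 in GFP replicates 1, 2 and 3, and 1436, 1353 and 1292 in POU5F1B replicates 1, 2 and 3. The groups overlapped, with GFP replicate 3 the highest of all and the other 5 libraries close together. Mean levels were 121 ± 19.8 CPM with GFP and 115 ± 9.15 CPM with POU5F1B (SD, n = 3). The log2 fold change of -0.06 ± 0.15 (SE) had a 95% interval of -0.41 to 0.29, so differences up to about 0.753-fold or 1.23-fold lie within its error. Its sign was not shared by the replicate numbers, with log2 differences of -0.01, 0.25 and -0.41 for replicates 1, 2 and 3. The antisense gene TM4SF1-AS1, which shares no exon base with TM4SF1 in the annotation, had 5 to 16 counts in GFP and 8 to 12 in POU5F1B libraries.

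TM4SF19 (ENSG00000145107) was low and did not pass the filter. GFP replicates 1, 2 and 3 gave 10, 14 and 6 counts, and POU5F1B replicates 1, 2 and 3 gave 4, 2 and 8. It was lower with POU5F1B in replicates 1 and 2 but higher in replicate 3 (8 against 6 counts), and the groups overlapped. Mean levels were 0.810 ± 0.274 CPM with GFP and 0.389 ± 0.249 CPM with POU5F1B (SD, n = 3). When every gene with at least 1 count was fitted, its log2 fold change was -1.07 ± 0.57 (SE). Its counts are uncertain for another reason, since 49.6% of its exon bases are shared with exons of other genes, namely the read-through gene TM4SF19-DYNLT2B on the same strand (42.9%) and TM4SF19-AS1 on the opposite strand (28.4%). The read-through gene was listed at 0 counts in all 6 libraries and TM4SF19-AS1 at 4 to 11.

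The other 3 members were at or under the floor of 3 counts in every library. TM4SF18 had 1, 2 and 2 counts in GFP and 0, 2 and 2 in POU5F1B replicates 1, 2 and 3. TM4SF4 had 1 count, in POU5F1B replicate 2, and TM4SF20 had 1 count, in POU5F1B replicate 3, with 0 in the other 5 libraries each. No fold is given for them, and a difference was not detectable at this depth. TM4SF18 and TM4SF4 lie on either side of TM4SF1, so neighbours in the cluster differed in level from more than 100 CPM to near 0.

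Per kilobase of exon, the order of the members in GFP cells was TM4SF1 (34.6 CPM per kb), TM4SF19 (0.427), TM4SF5 (0.387) and TM4SF18 (0.0314), with TM4SF4 and TM4SF20 at 0. The levels of TM4SF19 and TM4SF5 in GFP cells did not differ beyond their spread. In POU5F1B cells, TM4SF5 came second at 4.08 CPM per kb, after TM4SF1 at 33.0 and before TM4SF19 at 0.205, which its libraries did not overlap. As a share of all TM4SF family counts, TM4SF5 took 0.438%, 0.214% and 0.241% in GFP replicates 1, 2 and 3 and 3.03%, 2.79% and 3.77% in POU5F1B replicates 1, 2 and 3. With 95% Wilson limits, which cover counting error only, these shares spanned 0.0729% to 0.952% in GFP and 2.05% to 4.92% in POU5F1B libraries, from the same counts that chose the gene. TM4SF1 still made up 95.4% to 96.9% of the family's counts in POU5F1B libraries and 98.6% to 99.3% in GFP libraries.

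With limma voom over all 6 libraries, 0 of 14286 genes (0.0%) had an adjusted p under 0.05 with a fold above 2, and TM4SF5 and TM4SF1, the tested members, were among those not called. The same count was 0 with edgeR and 232 (1.62%) with DESeq2, and with voom 867 genes higher (6.07%) and 831 lower (5.82%) had an unadjusted p under 0.05. In 4 of 15 alternative fits TM4SF5 was called, namely DESeq2, sample quality weights, replicates 1 and 2 only and the fit without GFP replicate 3, which called 0.581%, 3.14%, 3.21% and 1.39% of the tested genes as higher and 1.62%, 7.54%, 8.36% and 4.16% in either direction. TM4SF1 was called in 0 of 16. As the contrast picked TM4SF5, nothing is read from these counts.

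The genes whose pattern over the 6 libraries was most like that of TM4SF5 were EDN3, the ligand endothelin 3 (Pearson r of log2 CPM 0.990), PLAGL1, a zinc finger factor (0.987), the small nucleolar RNA gene SNORA33 (0.987), DCTPP1, a dCTP pyrophosphatase (0.987), and DIP2A (0.987). EDN3 had 260, 187 and 245 counts in GFP and 964, 954 and 900 in POU5F1B replicates 1, 2 and 3. It was the one of the 5 with a difference above 4-fold (log2 fold change 2.08 ± 0.20, SE), and DCTPP1 differed by 0.25 ± 0.11 (SE) on the same scale. For TM4SF1 the most alike were MFF, a mitochondrial fission factor (0.994), KLHL7 (0.992) and PARP1, the poly(ADP-ribose) polymerase (0.991). These correlations rest on 6 points that share libraries and depth, among 14286 genes, and describe likeness alone.

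The tetraspanins, the related family of membrane organisers, were compared as a whole. Of 33 genes, 28 had a count and 20 were tested; 0 were called (0.0% of all genes), 12 had a positive and 8 a negative log2 fold change. Their median was 0.18, beside -0.02 over all 14286 tested genes. In 5 of the 20 every POU5F1B library lay above every GFP library (25.0%, against 10.2% of all tested genes), namely TSPAN1, TSPAN13, CD81, CD82 and CD151. In 2 of the 20 every POU5F1B library lay below (10.0%, against 9.24%), namely TSPAN5 and TSPAN9. The largest log2 fold change of a tetraspanin was 0.99, of TSPAN13. TM4SF5 was picked for its fold change, so its distance from the tetraspanins is no comparison of the families.

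**Figure D3:**
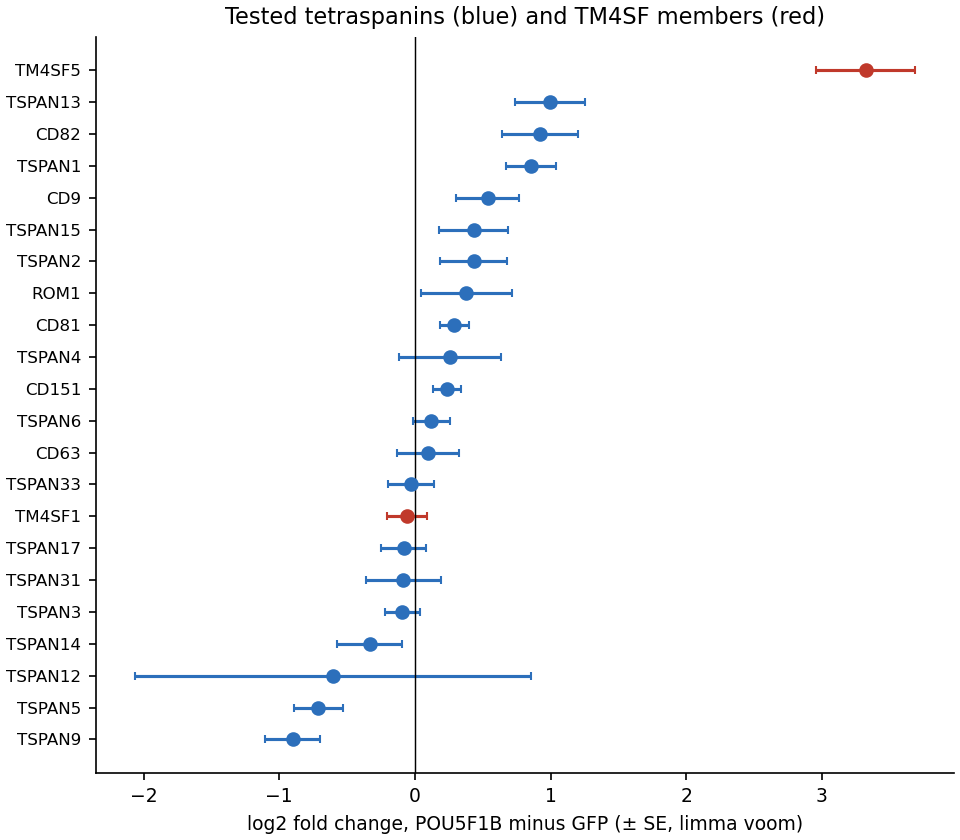
Log2 fold change (POU5F1B minus GFP, limma voom, horizontal axis, bars ± SE) of the 20 tested tetraspanins in blue and of TM4SF5 and TM4SF1 in red, sorted by value (vertical axis, genes). TM4SF5 at 3.32, picked for its fold change, lies beyond all tetraspanins, which run from -0.90 (TSPAN9) to 0.99 (TSPAN13).

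Among tetraspanins with the smallest p-values, TSPAN1, an epithelial tetraspanin, had 95, 103 and 105 counts in GFP and 210, 167 and 161 in POU5F1B replicates 1, 2 and 3. It was higher with POU5F1B by 0.86 ± 0.18 on the log2 scale (SE; adjusted p of limma voom 0.209). TSPAN9 had 114, 113 and 93.7 CPM in GFP and 47.3, 50.7 and 76.8 CPM in POU5F1B replicates 1, 2 and 3 (-0.90 ± 0.20; limma voom adjusted p = 0.220). TSPAN5, which with TSPAN14 and others escorts the protease ADAM10, had 175, 136 and 181 CPM in GFP and 87.4, 91.3 and 122 CPM in POU5F1B libraries (-0.71 ± 0.18; limma voom adjusted p = 0.241). In these 3 genes the groups did not overlap, yet none passed the threshold. The most abundant were CD9, CD63 and CD81, partners of integrins and components of exosomes. CD9 was at 445, 438 and 543 CPM in GFP and 818, 825 and 478 CPM in POU5F1B libraries, so that it was higher in replicates 1 and 2 and lower in replicate 3 (0.54 ± 0.23, SE; limma voom adjusted p = 0.428). CD63 did not pass either (0.10 ± 0.23; adjusted p of limma voom 0.897), nor did CD81 (0.29 ± 0.11; adjusted p of limma voom 0.358). With replicates 1 and 2 only, TSPAN9, TSPAN13 and CD82 were called, the first as lower and the others as higher (1 and 2 of 20, beside 5.15% and 3.21% of all genes), and the median of the list was -0.05.

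Other tetraspanins followed the replicate number and not the group (chosen after their values were seen). TSPAN8, a tetraspanin of gut epithelium, had 2, 0 and 285 counts in GFP and 1, 0 and 164 in POU5F1B replicates 1, 2 and 3. TSPAN7 had 2, 0 and 33 counts in GFP and 1, 0 and 21 in POU5F1B libraries, and TSPAN12, a co-receptor in Norrin signalling, 12, 5 and 120 in GFP and 4, 6 and 67 in POU5F1B libraries. In TSPAN7 and TSPAN8, 2 of 28 tetraspanins with a count (7.14%), both replicate 3 libraries held at least 10 counts and exceeded 10 times the highest level of the other 4, which held for 0.333% of all genes with a count. Neither passed the filter, as they were high in 1 library of each group. TM4SF5 did not share this pattern, since GFP replicate 3 with 4 counts lay between the other GFP libraries.

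**Figure D4:**
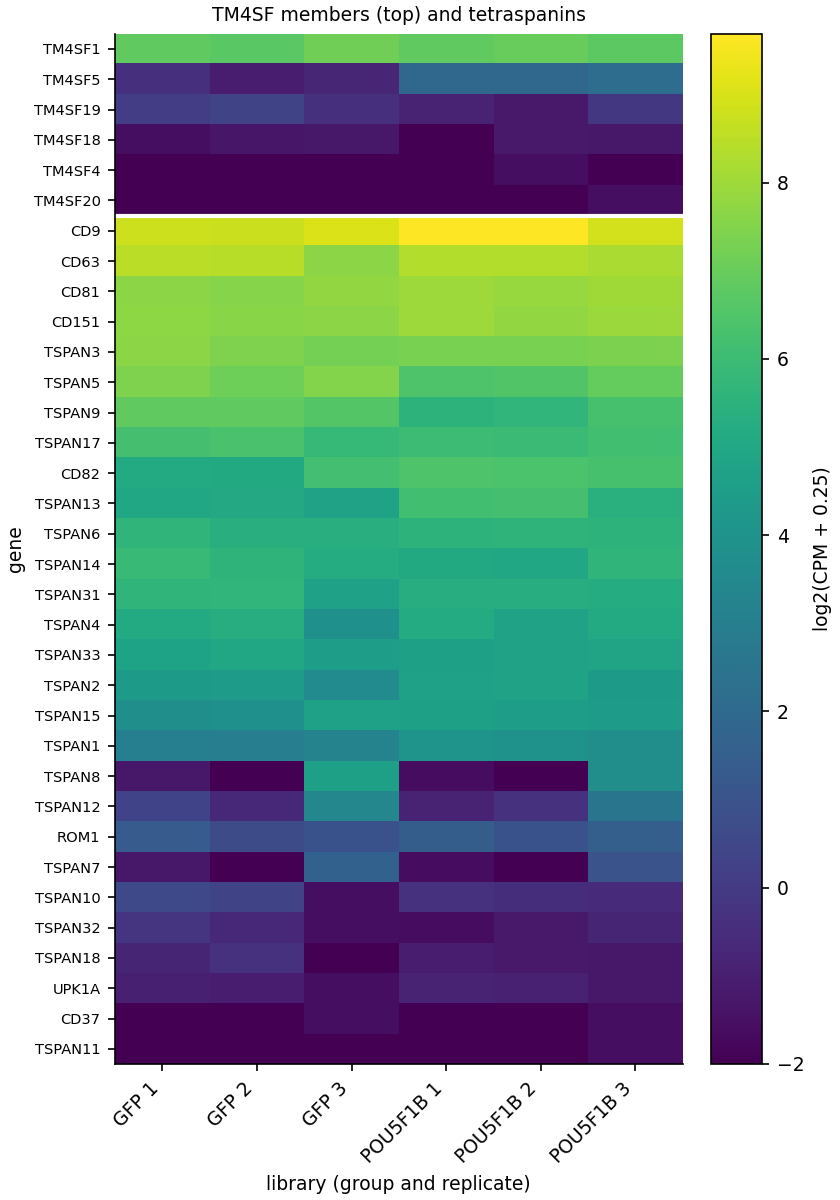
Heat map of log2(CPM + 0.25) for the 6 TM4SF members (above the white line) and the 28 tetraspanins with a count (below it), one row per gene sorted by mean level and one column per library. TM4SF5 changes shade with the group, whereas TSPAN8, TSPAN12 and TSPAN7 change shade in the columns of both replicate 3 libraries.

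The partners of TM4SF1 and TM4SF5 were followed through 24 genes for integrins, receptors, kinases, adaptors and downstream signalling proteins, and all 24 were tested. Again 0 were called (0.0% of all genes), 14 had a positive and 10 a negative log2 fold change, and the median was 0.07, beside -0.02 over all tested genes. In 5 genes all POU5F1B libraries lay above all GFP libraries (20.8%, against 10.2%), namely EGFR, CD151, DDR1, SLC7A1 and RAC1. In 2 they lay below (8.33%, against 9.24%), namely ITGB1 and CDKN1B. CD151 is also counted among the tetraspanins.

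Of the integrins and receptors, ITGB1, the common beta subunit of collagen and fibronectin receptors, was at 265, 262 and 323 CPM in GFP and 195, 209 and 191 CPM in POU5F1B replicates 1, 2 and 3 (-0.51 ± 0.12, SE; limma voom adjusted p = 0.235). EGFR, the epidermal growth factor receptor, was at 202, 200.1 and 126 CPM in GFP and 330.0, 312 and 247 CPM in POU5F1B libraries (0.77 ± 0.22, SE; limma voom adjusted p = 0.282). ITGA2, a collagen receptor subunit bound by TM4SF5, was higher with POU5F1B in replicates 1 and 2 and lower in replicate 3, with log2 differences of 1.16, 1.12 and -0.86. With replicates 1 and 2 only it was the 1 partner of 24 called higher, beside 3.21% of all tested genes, and 0 were called lower. ITGB5 had the highest level, at 1353, 1176 and 354 CPM in GFP and 830, 802 and 619 CPM in POU5F1B libraries. Its difference of -0.16 ± 0.49 in log2 (SE; adjusted p of limma voom 0.932) was within the spread, with GFP replicate 3 the lowest library.

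Of the signalling proteins, RAC1, a GTPase of membrane ruffles, was at 410.0, 379 and 362 CPM in GFP and 484, 496 and 431 CPM in POU5F1B libraries (0.29 ± 0.10, SE; limma voom adjusted p = 0.353). RHOA, a GTPase of stress fibres, differed by 0.34 ± 0.19 (SE; limma voom adjusted p = 0.525). The kinases acting with TM4SF5 did not pass, with 0.06 ± 0.17 for PTK2 (focal adhesion kinase) and -0.04 ± 0.30 for SRC (SE; limma voom adjusted p = 0.920 and 0.977). The 95% interval was -0.35 to 0.47 for PTK2 and -0.75 to 0.68 for SRC, in log2 fold change.

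Genes around the members were examined next, that is, those with any base within 500 kb. There were 162, of which 55 were tested and 0 called (0.0% of all genes), with a median log2 fold change of 0.002. All POU5F1B libraries lay above all GFP libraries in 7 (12.7%, against 10.2%) and below in 2 (3.64%, against 9.24%). The 7 were all on the TM4SF5 side of the list, where 29 genes were tested (24.1%): UBE2G1, MYBBP1A, CXCL16, ZMYND15, PSMB6, PLD2 and INCA1. The median around TM4SF5 was 0.10.

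Upstream of TM4SF5, ZMYND15, a zinc finger gene 25.8 kb away, had 18, 33 and 20 counts in GFP and 81, 63 and 44 in POU5F1B replicates 1, 2 and 3 (1.43 ± 0.34 in log2, SE; limma voom adjusted p = 0.236). CXCL16, a transmembrane chemokine gene 31956 bases away, was at 35.4, 43.2 and 33.9 CPM in GFP and 126, 115 and 55.4 CPM in POU5F1B libraries (1.31 ± 0.35, SE; limma voom adjusted p = 0.258). Both were higher with POU5F1B in 3 of 3 replicate numbers and neither passed the threshold over 6 libraries. With replicates 1 and 2 only, 4 of the 55 neighbours of all members were called higher and 2 lower, beside 3.21% and 5.15% of all tested genes. The higher ones were CXCL16 and ZMYND15 near TM4SF5 and COL4A3 and COL4A4 near TM4SF20. The lower ones were SPNS2 near TM4SF5 and NRROS near TM4SF19. SPNS2, a sphingosine-1-phosphate transporter gene 232.8 kb from TM4SF5, had 37, 45 and 962 counts in GFP and 26, 11 and 498 in POU5F1B libraries, so the replicate 3 libraries stood far above the others in both groups. CXCL16 and ZMYND15 overlap by 96 bases on opposite strands, so a few reads could be counted for either. Past CXCL16 but nearer than SPNS2, MED11 (38.3 kb from TM4SF5) and ARRB2 (50.4 kb) did not differ beyond their spread (-0.01 ± 0.16 and 0.04 ± 0.13). Downstream, groups did not overlap in PSMB6 (0.10 ± 0.10), PLD2 (0.56 ± 0.26) and INCA1 (0.73 ± 0.36). Upstream, the same held for MYBBP1A (0.34 ± 0.13) and UBE2G1 (0.15 ± 0.11), all as log2 fold changes ± SE. Of the 29 tested genes around TM4SF5, 21 had a positive and 8 a negative log2 fold change. Closest of all, VMO1 (2.1 kb away) had 0, 4 and 5 counts in GFP and 3, 2 and 2 in POU5F1B libraries, and GLTPD2 (5.8 kb away) had 1 count in all. These genes beside TM4SF5 were too low for a difference to be detectable.

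**Figure D5:**
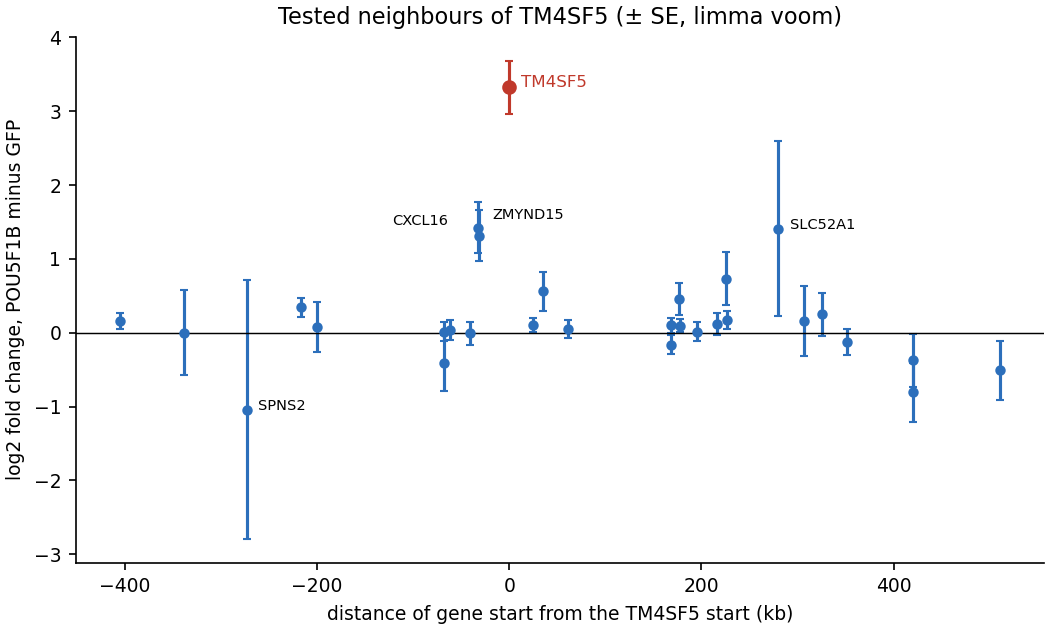
Log2 fold change (POU5F1B minus GFP, limma voom, vertical axis, bars ± SE) of TM4SF5 (red) and of the 29 tested genes within 500 kb of it (blue) against the distance of each gene's start from the TM4SF5 start in kb (horizontal axis). CXCL16 and ZMYND15 (1.31 and 1.43) stand above the genes next to them, and SPNS2 and SLC52A1 have wide errors.

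Around the cluster on chromosome 3, WWTR1, which encodes the TEAD co-activator TAZ and lies 13.8 kb from TM4SF4, was at 109, 103 and 54.9 CPM in GFP and 127, 134 and 89.7 CPM in POU5F1B libraries (0.43 ± 0.29, SE; limma voom adjusted p = 0.602). It is counted among the partners as well. COMMD2 was at 41.9, 48.7 and 48.4 CPM in GFP and 31.7, 35.7 and 34.1 CPM in POU5F1B replicates 1, 2 and 3, with groups that did not overlap (-0.45 ± 0.13, SE; limma voom adjusted p = 0.300). The most abundant genes of the list were PFN1 near TM4SF5 (0.10 ± 0.09; limma voom adjusted p = 0.689), and TFRC (-0.24 ± 0.15; adjusted p = 0.576) and PAK2 (-0.02 ± 0.17; adjusted p = 0.980) near TM4SF19, in log2 fold change ± SE.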

How the data were processed

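RNA of 6 libraries, 3 GFP and 3 POU5F1B, was assigned to groups from the sample titles. The authors deposited 1 table of raw counts per gene and library, not normalized. Reads had been aligned to hg19 with hisat2, and the authors kept unique alignments and counted them with featureCounts, using an annotation of genes and transposable elements; the strand setting and annotation release are not given in the sources used here. Symbols were found for 87.4% of the 63677 identifiers, and for 103 of the 105 list entries. Gene positions and exons are those of a GENCODE annotation on GRCh37, the same build as hg19.

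The filterByExpr function of edgeR 4.0.16 left 14286 genes, which were scaled by TMM. The groups were compared with limma 3.58.1 (voom, moderated and two-sided, in R 4.3.3), using no block. P-values were adjusted by Benjamini-Hochberg across the 14286 genes, and calls needed an adjusted p under 0.05 and a fold above 2. Fold changes are log2, POU5F1B minus GFP. CPM used TMM-scaled library sizes, and log2 CPM a prior count of 2. The quasi-likelihood test of edgeR, DESeq2 1.42.0, quality weights, other scalings and filters, the replicate block, replicates 1 and 2 only and leaving out each library were alternatives. Intervals on counts and shares cover counting error alone. PCR copies could not be told from separate molecules, so these limits may be too narrow even for that error. The fits were tested on simulated data.

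The members, lists and motifs were chosen with earlier results of these data known, and the motifs were picked after the values were seen. Named genes were the members, and in each list the 3 with the highest level, the 3 with the smallest p and any called; the 5 genes most like TM4SF5 and 3 most like TM4SF1; and, chosen after their values were seen, others such as ITGA2, SPNS2, PTK2, SRC and the genes closest to TM4SF5.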

Additional observations from a re-analysis of the deposited data

How the results depend on the processing

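The log2 fold change of TM4SF5 ranged from 3.07 to 3.58 over 15 alternatives and that of TM4SF1 from -0.14 to 0.11 over 16, each within the spread between replicates of the value reported. TM4SF5 was not tested where at least 10 counts were required in every sample. Genes past the threshold numbered 0 with 9 of 16 alternatives, but 232 with DESeq2, 1077 with sample quality weights, 4 with at least 1 count in total, 1 with the replicate block and 1194 with replicates 1 and 2 only. Across the fits that each left out 1 library the count ranged from 0 to 595, with 595 without GFP replicate 3 and 5 without POU5F1B replicate 3. The cause of these changes was not tested. The deviations of same-numbered libraries from their group means correlated at 0.242 (replicate 1), 0.0883 (replicate 2) and 0.165 (replicate 3). The numbers were therefore not taken to pair the samples in the main fit. GFP replicate 3 was nonetheless closer to POU5F1B replicate 3 (Pearson r of log2 CPM 0.945) than to GFP replicates 1 and 2 (0.916 and 0.927). POU5F1B replicate 3 was closest to POU5F1B replicate 1 (0.970). What the replicate 3 libraries share was not tested.

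The median of the tetraspanins was 0.18 and moved to -0.011 with quality weights and -0.049 with replicates 1 and 2 only; that of the partners kept within its spread in 16 of 16 alternatives. The median of the neighbours stayed near 0, at -0.0082 with edgeR, -0.029 with quality weights, 0.040 with upper quartile, 0.029 with total counts and with at least 1 count in total, -0.0095 with the replicate block, -0.036 with replicates 1 and 2 only and 0.051 with a window of 250 kb, and between -0.045 and 0.049 without 1 library; the cause was not tested. With a prior count of 0.5, 4 of the 5 genes most like TM4SF5 were shared. Depth limits TM4SF4, TM4SF18 and TM4SF20, at no more than 3 counts in each library, and the GFP level of TM4SF5.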
